A study of Mus musculus with 8 samples.

Results

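The 7 genes described here, Cd163, Mrc1, Lyve1, Folr2, Stab1, Cbr2 and Gas6, are marker genes of resident perivascular macrophages. They were taken as every probe set whose 1 gene symbol in the probe annotation is one of these names, which gave 9 of the 45101 probe sets of the array. All 7 genes passed the brightness filter and were among the 11232 genes tested, of 18193 on the array. The RNA came from epididymal fat, a visceral depot at the testis, of male C57BL/6J mice that entered at 6 weeks of age, with 1 array per mouse and 8 arrays in all. The groups of 2 mice each were high-fat diet with telmisartan, high-fat diet with candesartan, high-fat diet without drug (HFD) and chow. Chow gave 10% of calories from fat and the high-fat diet 30%, for 24 weeks. The drugs, both blockers of the angiotensin II receptor, were given in drinking water at about 3 mg/kg/day for the next 5 weeks. Whole fat was used, so a lower signal from fewer cells of a type and one from less RNA per cell cannot be told apart.

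Resident macrophages of fat lie along small blood vessels, where they take up circulating and dying-cell material, in contrast to monocyte-derived macrophages that gather around dying fat cells in obesity. Their usual surface markers are scavenger and uptake receptors. Among the 7 genes, Cd163 encodes the receptor for haemoglobin bound to haptoglobin, Mrc1 the mannose receptor CD206, Stab1 the scavenger receptor stabilin-1, Folr2 the folate receptor beta and Lyve1 a receptor of the matrix sugar hyaluronan. Gas6 encodes a secreted ligand that bridges dying cells to the receptors Tyro3, Axl and Mertk, and Cbr2 a carbonyl reductase. None of the 7 is restricted to these cells. Lyve1 also marks lymphatic endothelium, Stab1 is made by sinusoidal endothelium, and Gas6 by stromal and vascular cells.

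The estimated changes of the genes did not all lie in 1 direction, and differences between the genes were not tested. Their start-site sequences are shown for a pair that lay lower on high-fat diet, Cd163 and Cbr2, and a pair that lay higher, Mrc1 and Stab1. RefSeq promoter windows (build GRCm38.p6) were at hand for 6 of the 7 genes, in 7 windows, since Folr2 has 2 annotated starts; Lyve1 had none. Each sequence is the 250 bases before an annotated start, read 5′ to 3′ on the strand of the gene. Capitals mark GAGGAA, the core of the motif bound by the macrophage factor PU.1, and TGCTGA, a half-site of the MAF factors, on either strand (TTCCTC and TCAGCA in reverse). The windows were chr6:124304401-124304650 (plus strand) for Cd163, chr11:120732022-120732271 (minus) for Cbr2, chr2:14229164-14229413 (plus) for Mrc1 and chr14:31168642-31168891 (minus) for Stab1.
Cd163: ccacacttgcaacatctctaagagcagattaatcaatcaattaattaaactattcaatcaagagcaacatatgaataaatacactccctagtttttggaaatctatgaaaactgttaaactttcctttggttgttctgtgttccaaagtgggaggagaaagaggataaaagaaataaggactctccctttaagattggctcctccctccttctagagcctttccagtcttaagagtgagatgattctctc
Cbr2: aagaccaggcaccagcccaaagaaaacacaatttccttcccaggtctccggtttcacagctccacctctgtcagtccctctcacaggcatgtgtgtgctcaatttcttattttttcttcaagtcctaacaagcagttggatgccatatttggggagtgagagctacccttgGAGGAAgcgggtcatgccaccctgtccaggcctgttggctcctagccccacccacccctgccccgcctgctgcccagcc
Mrc1: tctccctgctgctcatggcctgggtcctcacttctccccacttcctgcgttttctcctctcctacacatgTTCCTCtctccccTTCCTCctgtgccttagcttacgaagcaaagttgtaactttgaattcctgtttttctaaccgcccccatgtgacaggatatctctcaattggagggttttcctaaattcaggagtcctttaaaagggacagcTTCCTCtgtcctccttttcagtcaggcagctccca
Stab1: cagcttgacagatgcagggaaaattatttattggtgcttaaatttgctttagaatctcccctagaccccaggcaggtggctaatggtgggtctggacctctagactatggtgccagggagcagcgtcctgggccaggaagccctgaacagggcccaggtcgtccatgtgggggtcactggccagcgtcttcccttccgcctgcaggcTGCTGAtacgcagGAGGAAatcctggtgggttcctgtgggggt
GAGGAA occurred 3 times before Mrc1, once before Cbr2 and once before Stab1, in 3 of the 7 windows, against 23.3% of all 32851 windows of this length. TGCTGA occurred once before Stab1 and once in each Folr2 window, against 16.1% of all windows. The Cd163 and Gas6 windows held neither. So few windows cannot show whether the motifs go with the direction of change, which was not tested. A match is a description of letters only.

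The arrays differed in 2%-trimmed mean signal by up to 1.48 times before they were scaled to a common value, and the signals given here are the scaled ones. The 3'-to-5' probe set ratio of actin was 1.18 to 1.22 on the 8 arrays, and that of Gapdh 0.773 on telmisartan array 2 and 0.696 to 0.729 on the other 7. The telmisartan arrays lay furthest apart: the SD over genes of the log2 difference between a group's arrays was 0.484 for telmisartan, 0.314 for candesartan, 0.273 for HFD and 0.445 for chow. Telmisartan array 1 held a summed pan macrophage signal of 52147 and array 2 of 77047, and many of the results that rest on them are also given without each. The summed signal of 20 pan macrophage genes, all past the filter, was 52150 to 77050 with telmisartan, 58090 to 66160 with candesartan, 61900 to 63170 with HFD and 24030 to 26830 with chow. Adgre1, which encodes the macrophage marker F4/80, had signals of 1743 and 3503 with telmisartan, 2172 and 2935 with candesartan, 2629 and 2632 with HFD, and 620.3 and 660.04 with chow.

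The first comparison, of HFD with chow, asks how the diet changed these markers. Cd163 and Lyve1 fell and the other 5 did not pass the test. Of the 11232 genes, 8.09% were called in this comparison (an adjusted p under 0.05 in limma, which tests mean log2 signals), 2.95% lower and 5.15% higher. Of the 7 markers 2 were called, both lower. At an unadjusted p under 0.05 there were 4 of 7, against 24.1% of all genes. The median log2 change of the 7 was 0.16, against −0.01 over all genes tested.

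Cd163 had signals of 437 and 222 in HFD mice, against 777 and 1291 in chow mice. Both HFD arrays lay below both chow arrays, and in both groups the arrays were further apart, as a ratio, than for the other 6 markers. The mean was 330 ± 152 in HFD and 1034 ± 363 in chow (SD, n = 2 each). Cd163 fell by 1.68 on the log2 scale (SE 0.33, 95% CI −2.45 to −0.92, adjusted p 0.0204), or 3.21-fold lower. The call ended without HFD array 2 (−1.20, adjusted p 0.141), without chow array 2 (−1.32, 0.0831) and with no filter on dim probe sets (0.133), within a range over all alternatives of 0.00592 to 0.141.

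Lyve1 is read by 2 probe sets, and both gave the same picture. The brighter one had signals of 357 and 268 in HFD mice, against 829 and 949 in chow mice. The other had 317 and 295 in HFD mice and 668 and 907 in chow mice. No HFD array came near a chow array on either probe set. Lyve1 fell by 1.52 (SE 0.25, 95% CI −2.10 to −0.94, adjusted p 0.0104), or 2.87-fold lower. With each probe set tested on its own, the second fell by 1.35 (adjusted p 0.00974). The call of the brighter probe set ended without HFD array 2 (−1.31, adjusted p 0.108) and with no filter (0.0919, range over the alternatives 0.00096 to 0.108).

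Cbr2, the carbonyl reductase, had signals of 1528 and 1384 in HFD mice, against 3501 and 2196 in chow mice. The groups did not overlap, and the chow arrays were far apart. Its log2 change was −0.93 (SE 0.29, 95% CI −1.59 to −0.27, adjusted p 0.0888), short of the threshold. It passed with only the HFD and chow arrays in the fit (adjusted p 0.0492) and without either telmisartan array. The change was −0.93 in each of these fits. Telmisartan arrays enter this comparison only through the spread that limma estimates from all groups together. Over all alternatives the adjusted p of Cbr2 reached 0.362. The share of all genes called was 14.1% without telmisartan array 1, against 8.09% with all arrays.

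The other receptors lay higher in HFD mice, without passing the test. Stab1 had signals of 870.4 and 1110.2 in HFD mice, against 526 and 615 in chow mice. Its log2 change was 0.79 (95% CI 0.14 to 1.43, adjusted p 0.132). As for Cbr2, it passed with only the HFD and chow arrays (0.0342) and without either telmisartan array, at the same change of 0.79. Over the alternatives its adjusted p reached 0.509. Mrc1 had signals of 2353 and 1877 in HFD mice, against 1085 and 1771 in chow mice, a change of 0.60 (95% CI −0.13 to 1.33, adjusted p 0.295). The lower HFD array of Mrc1 was close to the higher chow array. Folr2 had signals of 2590.4 and 2422 in HFD mice, against 1618 and 1991 in chow mice, a change of 0.48 (95% CI −0.02 to 0.99, adjusted p 0.229).

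Gas6, the ligand, had signals of 2244 and 2392 in HFD mice, against 1808 and 2362 in chow mice. The groups overlapped, and the change of 0.16 (95% CI −0.29 to 0.62, adjusted p 0.663) turned to −0.03 without chow array 1. The second, much dimmer Gas6 probe set had signals of 72.3 and 58.7 in HFD mice and 48.03 and 64.8 in chow mice, a change of 0.22 (adjusted p 0.721 with each probe set tested on its own). Of the 7 markers, 3 had both HFD arrays above both chow arrays and 3 had both below. Over all genes tested, arrays did not overlap for 58.1%, with 27.8% above and 30.3% below, so a count of 6 of 7 is close to the background.

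**Figure D1:**
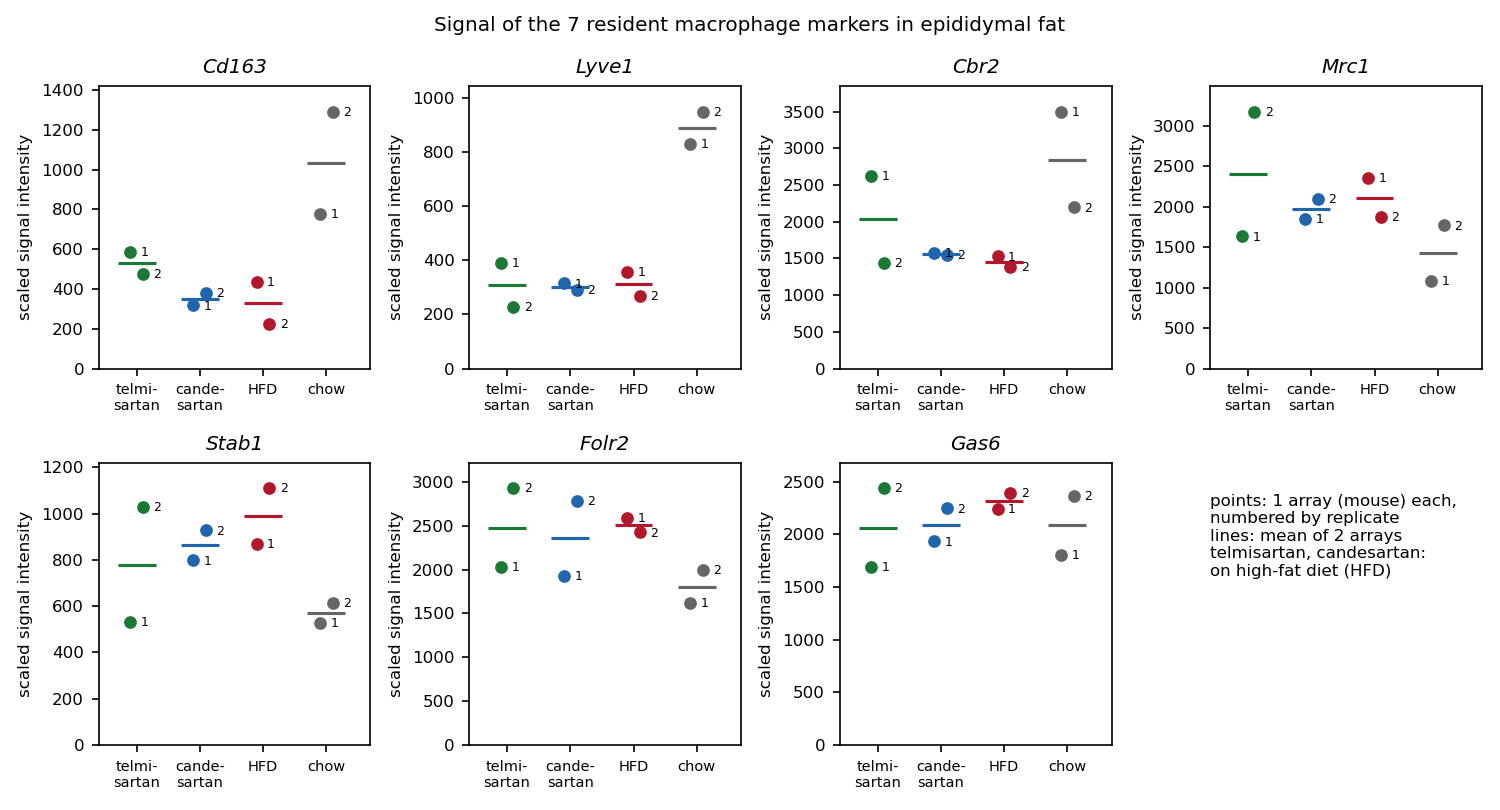
Scaled signal intensity (y axis, linear, from 0) of each of the 7 genes by group, with 1 point per array numbered by replicate and a line at the mean of 2 arrays. Cd163 and Lyve1 are highest in both chow arrays, Mrc1 and Stab1 are lowest there or near it, and the telmisartan arrays are far apart for Cbr2, Mrc1 and Stab1.

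The drug groups were compared with chow to see where the markers stood after 5 weeks of treatment. These comparisons share the chow arrays with HFD against chow, so their values are side by side and are not independent repeats. Lyve1 had signals of 390.4 and 227 with telmisartan and 314 and 289.7 with candesartan, against 829 and 949 in chow mice. All 4 drug arrays were below both chow arrays. Lyve1 fell by 1.57 with telmisartan (95% CI −2.15 to −0.99, adjusted p 0.00865) and by 1.56 with candesartan (95% CI −2.13 to −0.98, adjusted p 0.0103). The telmisartan change was −1.96 without telmisartan array 1 and −1.18 without telmisartan array 2. The candesartan call ended without chow array 2 (−1.46, adjusted p 0.0535), without candesartan array 1 (−1.61, 0.0634) and without candesartan array 2 (−1.50, 0.113), in a range of 0.000942 to 0.113 over the alternatives. With no filter neither Lyve1 call held (0.0783 with telmisartan, range 0.00096 to 0.0783, and 0.0969 with candesartan). In the comparison of telmisartan with chow 8.44% of all genes were called. There 3.48% of all genes were called lower and 4.96% higher, and 1 of the 7 markers was called. With candesartan 6.59% of all genes were called, 2.11% lower and 4.48% higher, and 2 of the 7 markers were called.

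Cd163 had signals of 587 and 475 with telmisartan and 317 and 379 with candesartan, against 777 and 1291 in chow mice. The drug arrays were all below the chow arrays, those of telmisartan the nearer. Cd163 fell by 1.53 with candesartan (95% CI −2.29 to −0.77, adjusted p 0.032). That call ended without chow array 2 (−1.17, adjusted p 0.128), candesartan array 1 (−1.40, 0.173) or candesartan array 2 (−1.66, 0.168), with no filter (0.171) and without the variance trend (0.0584), in a range of 0.0124 to 0.173. With telmisartan the change was −0.92 (95% CI −1.69 to −0.16, adjusted p 0.13). It was −0.77 without telmisartan array 2 and −1.08 without telmisartan array 1, and neither passed. Without rescaling it was −1.27 and passed (0.0245, range 0.0245 to 0.452).

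Mrc1, Stab1 and Cbr2 differed most between the telmisartan arrays. Mrc1 had signals of 1634 and 3177 with telmisartan and 1849 and 2099.7 with candesartan, against 1085 and 1771 with chow. Stab1 had 530.4 and 1029 with telmisartan and 798 and 927 with candesartan, against 526 and 615 with chow. Cbr2 had 2630.4 and 1439 with telmisartan and 1571 and 1549 with candesartan, against 3501 and 2196 with chow. Telmisartan array 1 was within the chow range for these 3 genes, and array 2 within the HFD range for Stab1 and Cbr2 and above it for Mrc1. Against chow without telmisartan array 1, where 15% of all genes were called, the change of Mrc1 was 1.20 (adjusted p 0.0242, with other settings up to 0.651), that of Stab1 0.85 (0.0244, up to 0.937) and that of Cbr2 −0.95 (0.0372, up to 0.893). Without telmisartan array 2, they were at 0.24, −0.10 and −0.08. With both arrays, none of the 3 passed (0.72, 0.38 and −0.51). Cbr2 with candesartan was at −0.83 (adjusted p 0.138). It passed without either telmisartan array, at the same change of −0.83, and its adjusted p reached 0.456 over the settings tried.

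Folr2 had signals of 2028 and 2927 with telmisartan and 1929 and 2779.7 with candesartan, against 1618 and 1991 with chow. Gas6 had 1690.2 and 2439 with telmisartan and 1933 and 2246 with candesartan, against 1808 and 2362 with chow. Neither passed in either drug group (Folr2 0.44 and 0.37, Gas6 −0.03 and 0.01 on the log2 scale against chow for telmisartan and for candesartan). The dim second Gas6 probe set lay lower, at −0.84 with telmisartan (adjusted p 0.134) and −0.34 with candesartan (0.591) against chow. Neither passed in limma with each probe set tested on its own.

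**Figure D2:**
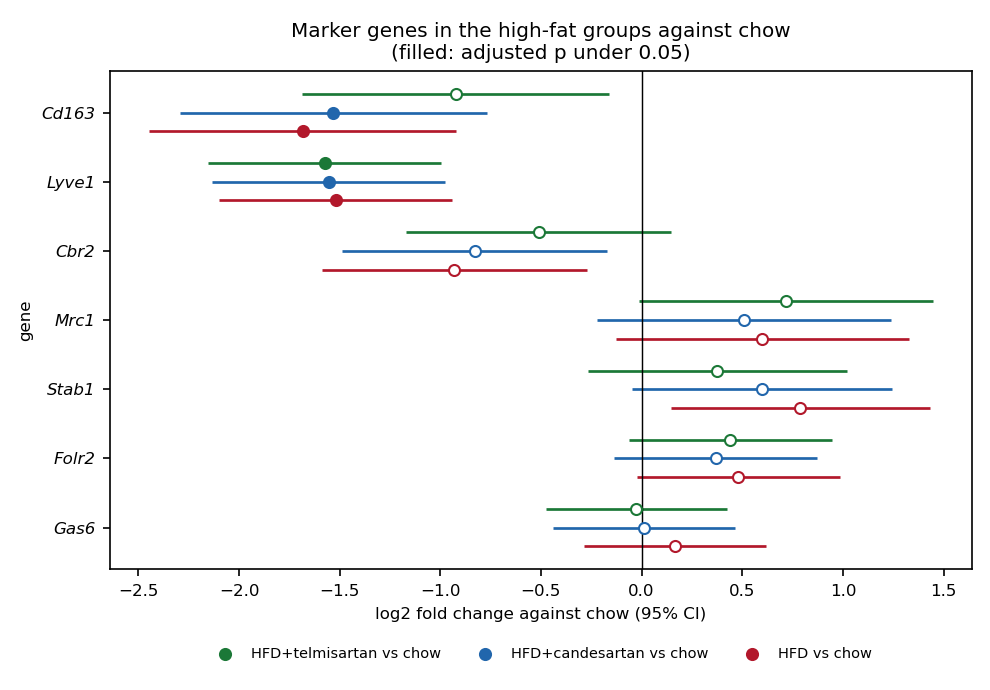
Log2 fold change against chow (x axis) with 95% confidence interval for each of the 7 genes (y axis) in the 3 high-fat groups, filled where the adjusted p was under 0.05. Lyve1 lies near −1.5 in all 3 groups, Cd163 lies nearest 0 with telmisartan (−0.92), and the intervals of Gas6 span 0 in all 3.

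Averaged over the 3 high-fat groups and set against chow, 13.5% of all genes were called, 5.88% lower and 7.59% higher, and the same 2 of 7 markers were called lower. Lyve1 fell by 1.55 (95% CI −2.02 to −1.08, adjusted p 0.00241) and kept its call whichever array was left out. Cd163 fell by 1.38 (95% CI −2.002 to −0.76, adjusted p 0.0132), and lost the call without chow array 2 (−1.01, 0.106) and with no filter (0.0977, range 0.00261 to 0.106). Cbr2 was at −0.76 (adjusted p 0.0682), Stab1 at 0.59 (0.133), Folr2 at 0.43 (0.157), Mrc1 at 0.61 (0.164) and Gas6 at 0.05 (0.873). Without telmisartan array 1, where 22.5% of all genes were called, 6 of the 7 passed, all but Gas6: Cbr2 at −0.90 (0.00767), Stab1 at 0.75 (0.00675), Mrc1 at 0.77 (0.0233) and Folr2 at 0.52 (0.0464) were the additions, and Cbr2 also passed without telmisartan array 2 (−0.61, 0.0459), with quantile normalization (−0.75, 0.0425) and without rescaling (−0.95, 0.0406). They compare with ranges over the alternatives of 0.00767 to 0.396, 0.00675 to 0.412, 0.0233 to 0.669 and 0.0464 to 0.526. In the order of group means, chow was highest for Cd163, Lyve1 and Cbr2 and lowest for Mrc1, Stab1 and Folr2. Among the 3 high-fat groups, neighbours in this order overlapped for all markers except telmisartan over candesartan for Cd163, and candesartan over HFD for Cbr2. Over all genes tested, arrays did not overlap for 32.2% between the drugs and for 33.4% in candesartan against HFD. On the dim second Gas6 probe set, candesartan lay over telmisartan with no overlap.

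The markers were next set beside macrophage RNA as a whole. For each array the mean log2 signal of the 20 pan macrophage genes was subtracted from that of each marker, and the chow mean set to 0, so that a negative value means that the marker changed less, or fell more, than those genes. This difference is within an array, so a constant scaling factor of the array cancels, which quantile normalization does not. It is given with no test. All 7 markers lay below both chow arrays on all 6 high-fat arrays, as did 93.2% of all genes tested, so the count is close to the background. The median over the high-fat arrays was −1.37 for the 7 markers and −1.44 for all genes. For Stab1 the difference was −1.17 to −0.50 over the high-fat arrays, for Mrc1 −1.03 to −0.57 and for Folr2 −1.17 to −0.86. For Gas6 it was −1.53 to −1.25, for Cbr2 −2.72 to −1.14, for Cd163 −3.64 to −1.84 and for Lyve1 −3.74 to −2.25. The lowest chow value was −0.44, for Cbr2. The mean of the pan macrophage genes was 1.07 to 1.77 above chow over the same arrays. Their own changes varied, and in HFD against chow 4 of the 20 were below the 0.79 of Stab1.

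**Figure D3:**
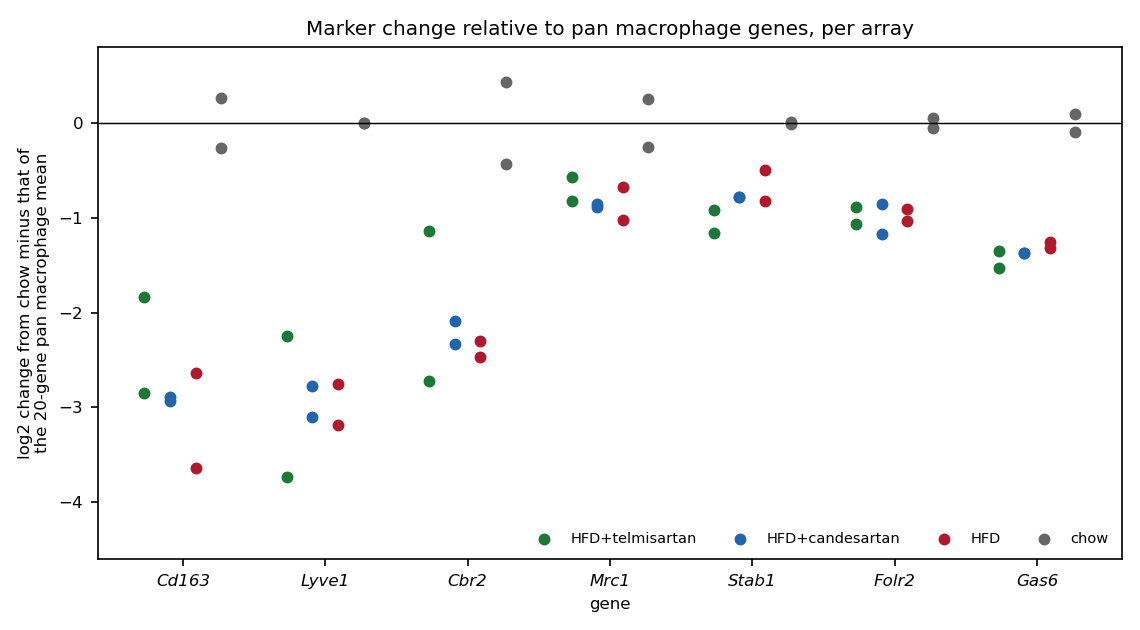
Log2 change from the chow mean of each marker minus that of the mean of 20 pan macrophage genes (y axis), with 1 point per array coloured by group. All high-fat points lie under the chow points of the same gene, from −0.50 for Stab1 to −3.74 for Lyve1, as they do for 93.2% of all genes tested.

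Other genes known from resident macrophages of mice were taken from a list of 36, of which 34 were on the array and 31 tested. In HFD against chow 3 rose and 6 fell (median log2 change −0.09, against −0.01 for all genes), where 5.15% of all genes were called higher and 2.95% lower. The falls were led by Fcna, which encodes the lectin ficolin A (1.40, adjusted p 0.00248), and by the C-type lectins Cd209g (2.21, 0.00645) and Cd209d (2.50, 0.00812). Fcna had signals of 749 and 663 in HFD mice, against 1846 and 1862 in chow mice. The rises were the complement subunits C1qb (0.998, adjusted p 0.0179) and C1qc (1.09, 0.0438) and the platelet factor Pf4 (0.71, 0.0272). C1qb had 7149.8 and 7038 in HFD mice, against 3491 and 3616 in chow mice, and C1q genes are made by macrophages at large. With candesartan against chow 1 of the 31 rose and 9 fell, where 4.48% of all genes were called higher and 2.11% lower. With telmisartan against chow 6 rose and 5 fell, where 4.96% of all genes were called higher and 3.48% lower. Between the drugs 0 of the 31 were called, and 0% of all genes. The calls of C1qb and C1qc ended when either array of HFD or of chow was left out, that of C1qc also without either candesartan array. Those of Pf4 ended without either HFD array or chow array 1, those of Cd209d and Cd209g without HFD array 2, and that of Fcna held at each omission.

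Of the 20 pan macrophage genes 17 rose and 0 fell in HFD against chow (median 1.53), with the endosomal marker Cd68 at 2.36, the adaptor Tyrobp at 1.89 and the protease Ctss at 1.85, calls that held whichever array was left out. Adgre1 rose by 2.04 (adjusted p 0.00481) and lost this call without either HFD array. Of 16 genes of lipid-associated macrophages, the cells that gather around dying fat cells, 11 rose and 0 fell (median 1.58), and the 3 with the smallest p, Gpnmb (5.12), Mmp12 (5.36) and Atp6v0d2 (5.44), were called at each omission.

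Some markers of endothelium were also lower, 3 of 4 lymphatic and 4 of 11 blood endothelial genes. Of the 6 lymphatic genes listed 5 were on the array and 4 past the filter, and 3 of the 4 fell in HFD against chow (median −1.38). They were Flt4, the lymphatic growth factor receptor (fell by 1.003, adjusted p 0.0113), Mmrn1 (1.95, 0.0138) and Reln (1.77, 0.025). Flt4 had signals of 165 and 147 in HFD mice, against 298 and 327 in chow mice. Pdpn, the remaining one tested, which other cells also make, was at 0.22 (adjusted p 0.469). Prox1, the factor that defines lymphatic endothelium, was at 1.29 and 1.38 in HFD mice and 1.22 and 5.09 in chow mice, under the floor of 6.68 on each of these arrays, and at 13.02 and 12.9 with telmisartan and 7.23 and 9.72 with candesartan. The summed signal of the 5 lymphatic genes on the array, Prox1 among them, was 1183 to 1289 with telmisartan, 1089 to 1291 with candesartan, 1177 to 1286 with HFD and 1418 to 1561 with chow. Pdpn made up the largest part of this sum, at a mean of 984.5 in HFD mice and 844 in chow mice. The sum therefore does not show the size of the falls of Flt4, Mmrn1 and Reln. Of 11 blood endothelial genes 4 fell and 0 rose (median −0.58), among them the receptors Tie1 (fell by 0.97) and Kdr (0.72) and the junction protein Esam (0.60), with a sum of 6742 to 7559 with HFD, against 9910 to 10570 with chow. The part of lymphatic or blood endothelium in the fall of Lyve1 was not tested. The calls of Flt4, Mmrn1 and Reln ended without either HFD array or chow array 2, and those of Tie1, Kdr and Esam without either HFD array, with Kdr lost also without either chow array, Esam without chow array 1, and Kdr and Esam without either candesartan array.

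**Figure D4:**
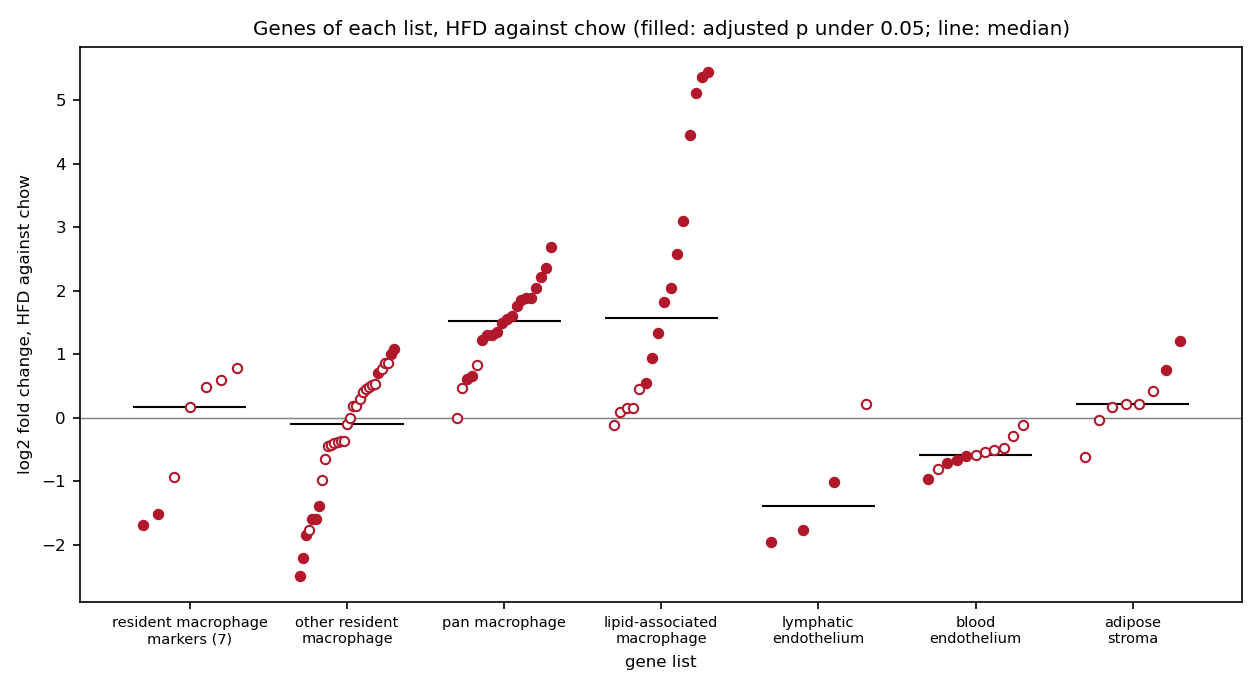
Log2 fold change of HFD against chow (y axis) for each tested gene of 7 gene lists (x axis), filled where the adjusted p was under 0.05, with a line at the list's median. The 7 resident macrophage markers run from −1.68 to 0.79, the pan macrophage list has its median at 1.53 and the lymphatic list at −1.38.

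Partners and relatives of the markers were read from short lists. The receptors of Gas6 did not pass: Axl was at 0.26 (adjusted p 0.34) and Mertk at −0.01 (0.991), Tyro3 was too dim to be tested, and the related ligand Pros1, which was nearest the threshold, was at 0.65 (0.0638). Mrc2, a collagen uptake receptor of the mannose receptor family, rose by 1.98 (adjusted p 0.000536), with signals of 620.1 and 689 in HFD mice, against 153 and 180.1 in chow mice, and this call held at each omission. Its relative Mrc1 was called in neither direction, and the difference between them was not tested. Cd44, another hyaluronan receptor, rose by 1.64 (adjusted p 0.0045), with signals of 2631 and 2965 in HFD mice, against 1052 and 759.6 in chow mice, and lost its call without HFD array 2. It was the 1 gene called of 5 tested in the hyaluronan list, of which Lyve1 is not a member.

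Genes of haem handling, only some of which act after uptake by CD163, were read next. Of 9 tested 3 rose and 0 fell (median 0.35): Hmox1, which encodes the haem-degrading enzyme (1.34, adjusted p 0.0107), Hpx, the haem carrier hemopexin (3.08, 0.0211), and Blvra, which reduces biliverdin (0.48, 0.0418). Hmox1 had signals of 1006 and 779.7 in HFD mice, against 361 and 340.3 in chow mice. Hpx had 96.8 and 54.8 in HFD mice, against 4.69 and 11.05 in chow mice, 1 of them under the floor. With no floor, on log2(signal + 16), its change was 1.92 and the call was lost (adjusted p 0.0527, range over the alternatives 0.00346 to 0.163). The calls of all 3 ended without either HFD array, those of Hpx and Blvra also without chow array 1, and that of Blvra without chow array 2 or either candesartan array. Of 6 other carbonyl reductases tested beside Cbr2, 0 rose and 1 fell: Dhrs7 by 1.06 (adjusted p 0.0437), with all 6 estimates below 0 (median −0.33). The Dhrs7 call ended without either HFD array, either candesartan array or chow array 1. In folate handling 0 of 4 passed, with Fpgs nearest (0.40, adjusted p 0.214). Of 4 genes for the shedding of surface receptors, which releases CD163 from the cell as a soluble form, Adam17 rose by 0.98 (adjusted p 0.0491), and lost this call without either array of HFD, chow or candesartan.

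Stroma, adipocyte and mesothelial markers were read because Gas6 and Cbr2 are not restricted to macrophages. Of 8 stromal genes 2 rose, Lum by 1.21 and Col1a1 by 0.76, and 0 fell. Of 8 adipocyte genes 2 fell, Slc2a4 by 1.70 and Pparg by 0.81, and 0 rose. Of 8 mesothelial genes none passed, with Krt8 nearest (−0.71, adjusted p 0.23), and their summed signal was 819 on telmisartan array 1 and 1812 to 3773 on the 6 arrays of the other groups. The part of these cells in the values of Gas6 and Cbr2 was not tested. The calls of Lum, Col1a1 and Pparg ended without either HFD array, those of Col1a1 and Pparg also without chow array 2, that of Pparg without chow array 1, that of Col1a1 without either candesartan array, and that of Slc2a4 without HFD array 1.

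The second question of the study was what each drug did on the high-fat diet. No marker passed in either drug group against HFD, nor between the drugs, and limma called 0% of all genes in each of these comparisons. At an unadjusted p under 0.05 there were also 0 of the 7 in each, with 6.2% of all genes for telmisartan against HFD, 1.25% for candesartan against HFD and 4.9% for telmisartan against candesartan. An exact permutation test of 2 arrays against 2 cannot give a p below 0.333. The intervals of the 7 markers reach as far as 1.52 for telmisartan and 0.91 for candesartan, so these data do not show that the drugs left the markers as they were.

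Cd163 came nearest, with signals of 587 and 475 with telmisartan, against 437 and 222 in HFD mice. Both telmisartan arrays were above both HFD arrays. The log2 change was 0.76 (SE 0.33, 95% CI −0.0025 to 1.52, unadjusted p 0.0506, adjusted p 0.766). Over the omissions this change ran from 0.27, without HFD array 2, to 1.25. Cd163 was the only 1 of the 7 markers whose arrays did not overlap in this comparison, where 37.9% of all genes did not, 18.5% above. With candesartan, at 317 and 379, the arrays lay between those of HFD, and the change was 0.15 (95% CI −0.61 to 0.91, adjusted p 1). Telmisartan against candesartan was 0.61 (95% CI −0.16 to 1.37, adjusted p 0.924), with the arrays of the drugs not overlapping, as for 32.2% of all genes, and those of telmisartan above, as for 15.6%. That last value is also the test of whether the drugs differ in their effect on HFD.

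Lyve1 was nearly level over the high-fat groups, at a log2 change of −0.05 with telmisartan (95% CI −0.63 to 0.53) and −0.04 with candesartan (95% CI −0.61 to 0.54) against HFD. Its interval for telmisartan against candesartan was −0.60 to 0.56. Stab1 was at −0.41 with telmisartan against HFD (95% CI −1.06 to 0.23) and at 0.07 without telmisartan array 1. Cbr2 was at 0.42 (95% CI −0.24 to 1.08) and at −0.02 without that array. Cbr2 with candesartan was at 0.10 (95% CI −0.56 to 0.76), and both candesartan arrays lay just above both HFD arrays, as for 17.9% of all genes, with 33.4% not overlapping either way. Mrc1 was at 0.12 with telmisartan (95% CI −0.61 to 0.85) and at −0.36 without telmisartan array 2, and with candesartan at −0.09 (95% CI −0.82 to 0.64). Folr2 was at −0.04 with telmisartan (95% CI −0.55 to 0.47) and at −0.11 with candesartan (95% CI −0.62 to 0.39). The signs of these small values of Lyve1, Mrc1, Folr2 and Gas6 against HFD turned under another scaling (median centring, or for Mrc1 with telmisartan no rescaling).

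Gas6 was at −0.19 with telmisartan (95% CI −0.64 to 0.26) and at −0.15 with candesartan (95% CI −0.60 to 0.30) against HFD. Its dim second probe set had signals of 30.7 and 31.9 with telmisartan and 45.6 and 42.4 with candesartan, against 72.3 and 58.7 in HFD mice. On that probe set the drug arrays lay below the HFD arrays, with changes of −1.06 (adjusted p 0.654) and −0.57 (adjusted p 1) that did not pass with each probe set tested on its own. The brighter probe set did not show this split, so the 2 probe sets disagree on the size of the difference.

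**Figure D5:**
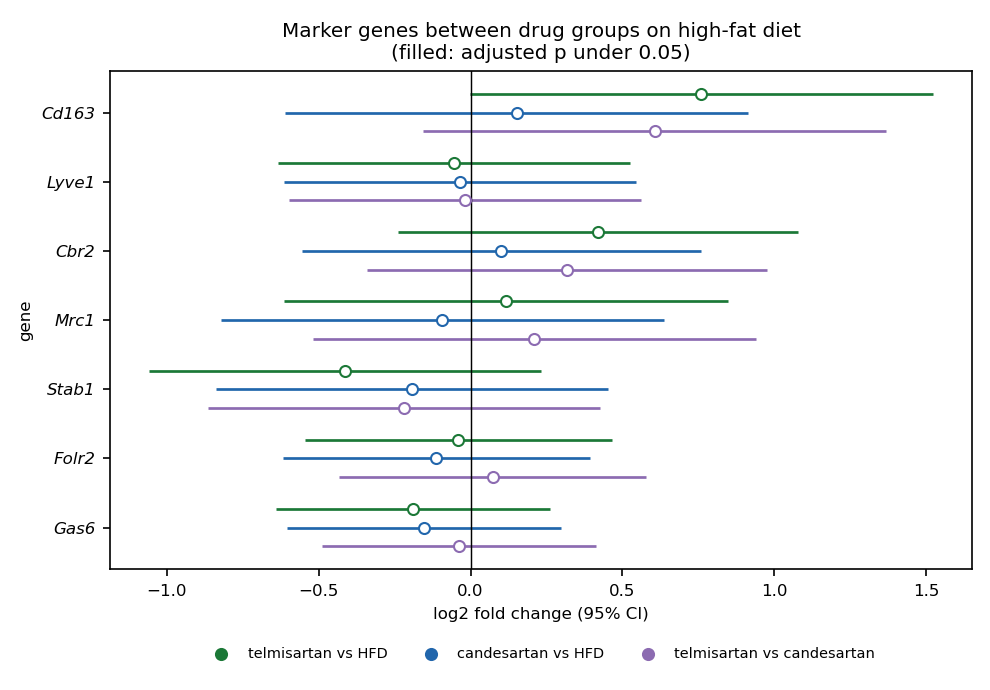
Log2 fold change (x axis) with 95% confidence interval for each of the 7 genes (y axis) in telmisartan against HFD, candesartan against HFD and telmisartan against candesartan. No point is filled, since no adjusted p was under 0.05, and Cd163 with telmisartan at 0.76 is the value farthest from 0.

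The markers were also compared by their correlation over the arrays. Across the 8 arrays the log2 signals of Cd163, Lyve1 and Cbr2 correlated with each other at 0.697 to 0.85, and those of Mrc1, Stab1 and Folr2 at 0.749 to 0.899, while all pairs between these trios were negative (−0.941 to −0.34). Gas6 went with the second trio, at 0.684 to 0.763. The trios are the markers with chow highest and those with chow lowest in the order of group means. The signs of these correlations are therefore no separate support for the grouping. These values describe 8 arrays in which the diet contrast is shared by every gene, and genes on one array share its scaling.

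By the highest Pearson correlation over the 8 arrays among the 11225 other genes tested, Lyve1 was most like Fcna (0.985), Kif1c (0.983) and Mcrs1 (0.982). Cd163 was most like Cdc42bpg (0.961), F13a1, which encodes a clotting factor subunit (0.961), and Mars1 (0.953). Cbr2 was most like Ndufa10 (0.993) and Ndufb6 (0.989), which encode subunits of respiratory complex I, and Dhrs7 (0.988). Mrc1 was most like Sema3c (0.983), Nat2 (0.979) and Fgl2 (0.978), and Stab1 like Glg1 (0.983), Slc7a2 (0.98) and Adgrg6 (0.98). Folr2 was most like Adam22 (0.973), Nfatc2 (0.963) and 2310022A10Rik (0.961), and Gas6 like Gigyf1 (0.975), Slc44a2 (0.965) and Plxdc2 (0.963). Over 8 arrays, the best of so many genes has a high value for each of the 7 markers. Fcna and F13a1 are also on the list of other resident macrophage genes. F13a1 had signals of 2916 and 2079 in HFD mice, against 3574 and 4171 in chow mice, a change of −0.65 (adjusted p 0.0638).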

How the data were processed

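The authors deposited a linear signal intensity per probe set for 8 arrays. Their software was GeneChip Analysis Suite, per the series design text, and how it summarised and scaled the probes is not given in the sources used here. Presence calls were not used. Groups came from the sample titles, and no source says that mice with the same number are paired. Each array was brought to the same 2%-trimmed mean, values under the 20th percentile (6.68) were set to it, and log2 was taken. Probe sets at or above the 50th percentile of mean log2 signal were kept (22519), and each gene was read by its brightest probe set with 1 symbol. Symbols came from the platform annotation (34945 probe sets with 1 symbol, 932 with several), of which 34741 were matched in a RefSeq gene table (GRCm38.p6) and 0 changed.

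limma 3.58.1 in R 4.3.3 fitted 4 group means with an intensity trend and 4 residual degrees of freedom, two-sided, with Benjamini-Hochberg adjustment over the 11232 genes and 95% intervals. The script was tested on simulated data. Figures used Python 3.11.15. The 2 arrays per group limit the precision, and the median interval reached 0.435 to each side (HFD against chow). Genes of other lists were named as the 3 called with the smallest p in each direction in HFD against chow, or the nearest 1 where none was called, with Adgre1 always and the 3 genes most correlated with each marker. Alternatives were other scalings, floors, filters, probe set choices, variance models, fewer groups, the replicate number as a block, and each array left out, with scaling and filter kept from all 8 arrays. Signals are printed without the floor. Prox1, Pdpn, Axl, Mertk and Tyro3 were named after their values were seen. The markers and lists were chosen with earlier results of these data known.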

Additional observations from a re-analysis of the deposited data

How the results depend on the processing

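With 2 arrays a group, 1 array could end a call. Of 1022 recomputed fold changes of the markers, 930 kept their direction and their side of the threshold, 17 lost the call, 24 gained one and 51 turned sign. Of the 7 markers 2 were called in HFD against chow. With no filter on dim probe sets, which adds genes both to the adjustment and to the fit of the variance trend, there were 0. With only the groups compared there were 4, and over the omissions there were at times fewer and at times more. For telmisartan against chow the 1 call became 2 without rescaling, 0 with no filter and 1 to 4 over the omissions. For candesartan against chow the 2 became 0 with no filter, 1 without the variance trend and 0 to 3 over the omissions. For the 3 high-fat groups together the 2 became 1 with no filter, 3 with quantile normalization, 3 without rescaling and 1 to 6 over the omissions. In the 3 comparisons among high-fat groups the markers called were 0 under every setting run. Leaving out an array of a group not compared kept the log2 change as it was and altered only the estimated spread. The cause of the other differences was not tested.

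Over all genes, HFD against chow gave 909 calls, 174 with no filter, 572 with median centring and 165 to 1611 over the omissions. Telmisartan against chow gave 948, 329 with no filter, 2045 without rescaling, 198 with only the groups compared and 528 to 1683 over the omissions. Candesartan against chow gave 740, 163 with no filter and 117 to 1315 over the omissions. The 3 groups together gave 1514, 709 with no filter, 966 with median centring and 832 to 2527 over the omissions. HFD against chow gave 1189 with only the groups compared, and candesartan against chow 566 without the variance trend. For the 3 groups together there were 1672 with quantile normalization and 1604 without rescaling. The marker counts above are to be read beside these counts of all genes. With no filter, 4 genes were called for telmisartan against HFD, 6 for candesartan against HFD and 6 between the drugs. Without rescaling 1 was called between the drugs, against 0. The named genes of other lists were run through the same settings as a choice made after seeing the data, and 22 of their 30 calls were lost with no filter. Those of Pf4, Blvra, Esam and Col1a1 were also lost with median centring and without rescaling, and those of Dhrs7 and Pparg with median centring.

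Arrays of the same number were at most weakly alike: the correlation of their deviations between groups was −0.0414 to 0.206. Whether the numbers mark a pairing cannot be told from these values. With the replicate number as a block the markers called were 4 in HFD against chow (1280 of all genes), 1 for telmisartan (1220) and 3 for candesartan (973) against chow, and 4 for the 3 groups together (1851). The gains were Cbr2 (adjusted p 0.0269) and Stab1 (0.0366) in HFD against chow, Cbr2 (0.0458) for candesartan, and Cbr2 (0.0195) and Stab1 (0.0383) for the 3 groups.

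The turned signs were of changes that did not pass. Under median centring, telmisartan against HFD was at 0.22 for Lyve1, 0.23 for Folr2 and 0.082 for Gas6. Candesartan against HFD was at 0.060 for Mrc1, 0.12 for Lyve1, 0.040 for Folr2 and 2.741e-05 for Gas6. Telmisartan against candesartan was at 0.1005 for Lyve1 and 0.082 for Gas6, and telmisartan against chow at 0.14 for Gas6. Without rescaling, Mrc1 was at −0.11 for telmisartan against HFD and −0.044 between the drugs, Folr2 was at −0.18 between the drugs, and Gas6 was at −0.084 for candesartan against chow and −0.14 for the 3 groups. Quantile normalization gave 0.002041 for Lyve1 between the drugs and −0.0003377 for Gas6 in candesartan against chow. The mean of probe sets gave 0.055 for Lyve1 between the drugs, and for Gas6 −0.17 in candesartan against chow and −0.13 for the 3 groups.

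Over the omissions, telmisartan against HFD ran from −0.36 to 0.60 for Mrc1, −0.44 to 0.34 for Lyve1, −0.30 to 0.22 for Folr2, −0.89 to 0.065 for Stab1, −0.015 to 0.85 for Cbr2 and −0.46 to 0.074 for Gas6. For Cd163 it ran from 0.27 to 1.25. Candesartan against HFD ran from −0.34 to 0.64 for Cd163, −0.26 to 0.071 for Mrc1, −0.24 to 0.17 for Lyve1 and −0.38 to 0.15 for Folr2. Between the drugs the range was −0.27 to 0.69 for Mrc1, −0.41 to 0.37 for Lyve1, −0.19 to 0.34 for Folr2, −0.70 to 0.26 for Stab1, −0.12 to 0.75 for Cbr2 and −0.30 to 0.23 for Gas6. For Cd163 it was 0.45 to 0.76. Against chow, Stab1 with telmisartan ran from −0.10 to 0.85. Gas6 ran from −0.028 to 0.36 with HFD, −0.29 to 0.24 with telmisartan, −0.18 to 0.20 with candesartan and −0.14 to 0.24 for the 3 groups.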
